A study of Mus musculus with 12 samples.

Results

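The 35 genes described here encode integrin subunits, the immunoglobulin family receptors and junction molecules they meet on other cells, P-selectin and its ligand, and the proteins that tie integrins to the actin skeleton. They were listed by name, and no measured value enters the rule that selects their probe sets. The platform annotation pairs 95 of the array's 45101 probe sets with a single gene among them, and all 35 genes were measured, each through 1 to 6 probe sets. Expression was compared over 12 Affymetrix mouse genome arrays, 3 in each of 4 groups, and the arrays carry the numbers 1 to 12 from their titles. The cells were LSK cells (lineage-negative Sca-1+ Kit+ marrow cells, a fraction that holds the stem cells) and myeloid progenitors, both sorted from the bone marrow of pooled mice. Every mouse carried floxed alleles, written FoxO1/O3/O4LoxP/LoxP, of 3 forkhead transcription factors. Wild-type mice were Mx-Cre- and FoxO-deficient mice were Mx-Cre+. The Mx promoter answers to interferon and is not restricted to blood cells, and only the deficient groups carried Cre, so an effect of Cre itself cannot be told apart from the loss of FoxO. Neither the age of the mice nor how Cre was induced is stated in the sources used here. The study's stated interest was the metabolism of reactive oxygen species in these cells.

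Integrins are paired alpha and beta chains that hold blood cells to matrix proteins and to neighbouring cells. In bone marrow, Itga4 with Itgb1 binds Vcam1 and fibronectin, Itga6 with Itgb1 binds laminins, and Itgal with Itgb2 binds Icam1 and Icam2. Talin and kindlin bind the beta chain inside the cell and switch the receptor to its active form, and vinculin links talin to actin. Such contacts are known to hold stem cells in their niche and to release them on mobilisation.

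Values are normalized intensities, that is, probe set brightness after the arrays were brought to a common distribution. A gene was read from its probe set of highest mean. No difference in brightness between genes is read as a result, though brightness helped choose the members given on every array. Sums over marker lists add the intensities of several genes, so bright genes weigh most in them. A gene was called in a comparison where limma's adjusted p was under 0.05 over all 13732 genes tested. Each array has a background limit, the highest of its low bacterial control probe sets, which ran from 5.143 to 12.96. Of the members, 22 lay above that limit on all 12 arrays and 8 on 6 to 11 of them. The other 5, Itga2, Itga9, Itgam, Itgax and Cdh5, lay above it on 2 to 4 arrays, so no difference is read from them.

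Amplification was done in triplicate from pooled mice, and it is not stated whether each array had a pool of its own. The p-values thus reflect the scatter among these arrays alone, and that scatter may be technical. Array 2, a wild-type LSK array, stands apart. Its 3′ probe set for Gapdh was 344 times as bright as its 5′ probe set, against 1.77 to 2.37 times on the other 11 arrays. Results that rest on it are given with and without it. Among the targeted genes, Foxo4 fell in both cell types, in LSK cells from 393 to 85.8 and in the progenitors from 329.8 to 59.9 (limma adjusted p = 0.00162 and 0.000114). Foxo1 and Foxo3 were not called in either cell type. Foxo1 had means of 104.3 in wild-type and 27.2 in deficient LSK cells, without overlap (adjusted p = 0.263), and of 23.45 and 12.5 in the progenitors, which overlap. Foxo3 had means of 2421 and 2828 in LSK cells, which overlap. In the progenitors they were 1860 and 2414, without overlap (adjusted p = 0.299). Whether the probe sets of these genes lie in the deleted parts could not be read from the sources used here. All 10 measured genes of a stem cell marker list lay above the limit on every LSK array, and 9 of them were lower in wild-type myeloid progenitors.

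In both genotypes, most adhesion genes that differed between the cell types were lower in myeloid progenitors. Wild-type myeloid progenitors had 2 members higher and 8 lower than wild-type LSK cells, 28.6% of the 35, where 21.4% of all genes were called (9.95% higher, 11.5% lower). FoxO-deficient myeloid progenitors had 3 higher and 7 lower than FoxO-deficient LSK cells, again 28.6%, where 19.6% of all genes were called (10.2% higher, 9.39% lower). The members' median log2 difference was -0.35 in wild type and -0.30 in the deficient cells, against 0.02 and 0.11 over all genes. The groups did not overlap for 16 members in wild type (45.7%; 35.8% of all genes, 18.2% higher and 17.6% lower) and for 20 in the deficient cells (57.1%; 52.4% of all genes, 30% higher and 22.4% lower). The share of genes called among the members thus lay not far above that among all genes. A late neutrophil marker list, 8 of 10 genes measured, was also lower in myeloid progenitors, with 5 genes called lower in wild type and 4 in the deficient cells and none higher. It summed to 5813 to 7848 in wild-type and 8239 to 8521 in deficient LSK cells, and to 4394 to 4537 and 6148 to 6470 in myeloid progenitors. Its part in the members' differences was not tested.

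The wild-type and the deficient comparison share no array. Of the 35 members, 27 had the same sign in both. Itga6, Selp, Icam1, Jam2, F11r, Podxl and Alcam were called lower in both, which is 7 of the 8 called lower in wild type and all 7 called lower in the deficient cells. Vcam1 was called higher in both, as 1 of 2 and 1 of 3. If each array was instead scaled to the same median, the median log2 difference of all genes moved to 0.13 and 0.26, and the share of calls that were higher in myeloid progenitors went from 46.5% to 60.8% in wild type and from 52.2% to 65.4% in the deficient cells. Under that scaling 4 members were called higher and 8 lower in wild type, and 3 higher and 6 lower in the deficient cells.

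**Figure D1:**
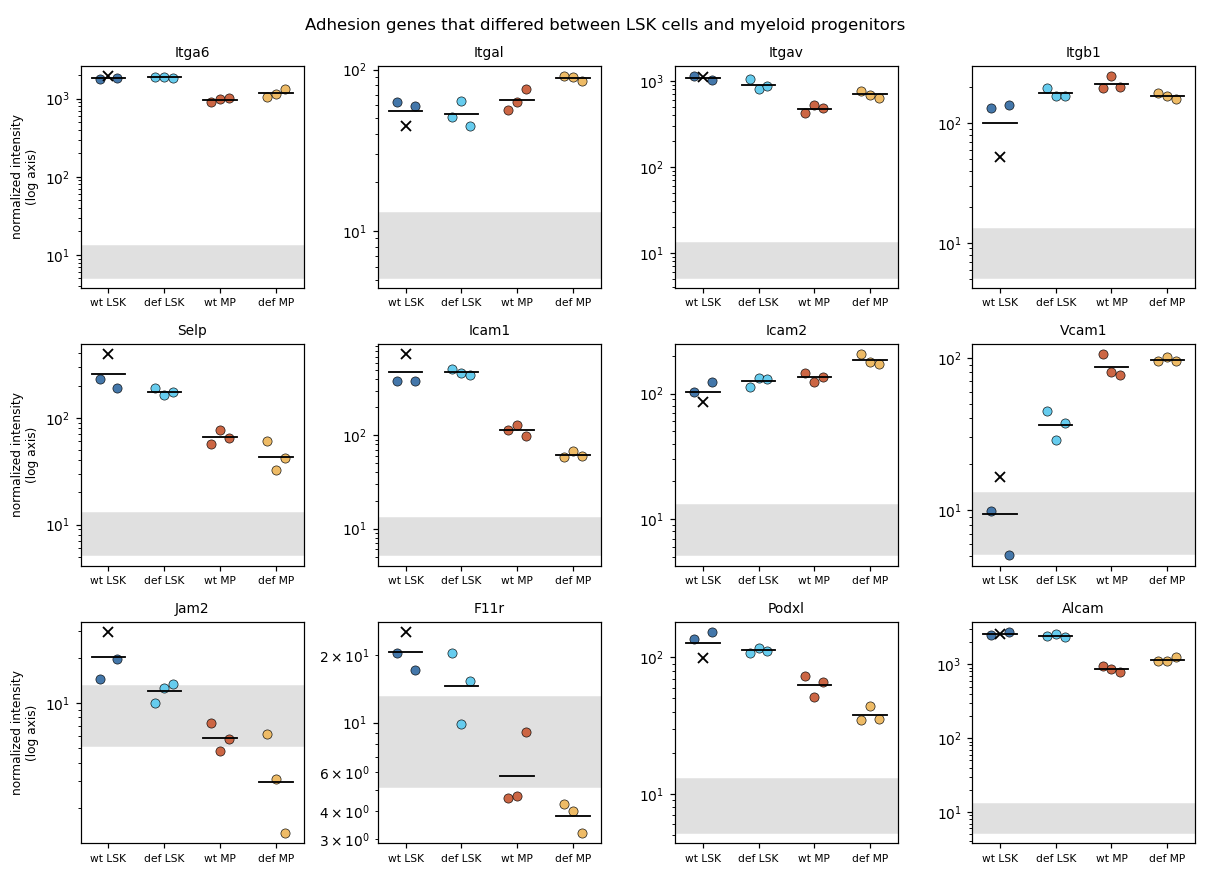
Normalized intensity (log axis) of the 12 adhesion genes called between cell types in at least 1 genotype. Each point is 1 array, the line is the group's mean of log2 values, the cross is wild-type LSK array 2, and the grey band is the range of background limits, 5.143 to 12.96. Alcam, Icam1, Itga6, Podxl and Selp lie lower on all 6 myeloid progenitor arrays than on all 6 LSK arrays, and Vcam1 lies higher.

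Among the 11 alpha subunits, Itga6 was lower in myeloid progenitors of both genotypes, Itgav was lower in wild type, and Itgal was higher in the deficient cells. Itga6, the laminin receptor chain often used to mark stem and progenitor cells, read 1780, 1925 and 1840 on wild-type LSK arrays and 917, 984 and 1010 on wild-type myeloid progenitor arrays. The deficient arrays read 1895, 1894 and 1841 for LSK and 1051, 1162 and 1326 for myeloid progenitors. Every myeloid progenitor array lay below every LSK array. The log2 difference was -0.93 ± 0.14 (SE, n = 3 and 3; adjusted p = 0.00128) in wild type and -0.68 ± 0.14 (adjusted p = 0.00719) in the deficient cells. The dimmer probe set of Itga6 was also lower in both, by -1.20 on the log2 scale in the deficient cells. With median scaling the difference in the deficient cells was -0.37 and was not called (adjusted p = 0.255).

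Itgav, the alpha chain of the vitronectin receptors, read 1127, 1118 and 1031 on wild-type LSK arrays and 428, 528 and 478 on wild-type myeloid progenitor arrays, so the groups lay far apart. The log2 difference was -1.20 ± 0.16 (adjusted p = 0.000707), and the 4 dimmer probe sets were lower too, by -1.80 to -0.32. In the deficient cells Itgav read 1053, 804.5 and 866 for LSK and 766.5, 689.8 and 636 for myeloid progenitors. These groups did not overlap but lay closer, and the difference of -0.37 ± 0.16 was not called (adjusted p = 0.138); with the mean of all 5 probe sets it was -1.55 and was called (adjusted p = 0.00775). Itgal, the alpha chain of LFA-1, read 51.1, 64.1 and 44.9 in deficient LSK cells and 90.8, 89.9 and 84.8 in deficient myeloid progenitors, with no overlap. Its log2 difference was 0.75 ± 0.20 (adjusted p = 0.0259). The call was lost without array 4, 6, 10, 11 or 12 (adjusted p = 0.0614 to 0.0964) and with the mean of both probe sets (adjusted p = 0.319). In wild type, Itgal read 63.1, 45.1 and 59.2 against 56.1, 62.8 and 76.2, which overlap (0.22 ± 0.20, adjusted p = 0.476).

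Itga4, which pairs with Itgb1 or Itgb7 to bind Vcam1 and fibronectin, was not called in any comparison. It read 472, 869 and 579 on wild-type LSK arrays, with the high value on array 2, and 388 to 544 on wild-type myeloid progenitor arrays. Deficient arrays read 450.5 to 479.9 in LSK cells and 559 to 701 in myeloid progenitors, without overlap, at 0.40 ± 0.23 on the log2 scale (adjusted p = 0.275). Group means of Itga5, a fibronectin receptor chain, ran from 36.1 to 59.7, those of the platelet chain Itga2b from 16.9 to 31.4, and those of Itgae, which binds E-cadherin, from 6.34 to 20.8. None of the 3 was called in any comparison, and Itgae lay above the limit on no deficient myeloid progenitor array.

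Of the 5 beta subunits, Itgb1 alone was called, and only between the wild-type cell types. Itgb1, the shared partner of many alpha chains, read 135, 52.2 and 142.5 on wild-type LSK arrays and 195.5, 246 and 201 on wild-type myeloid progenitor arrays. The groups did not overlap, but the lowest value was that of array 2. The log2 difference of 1.09 ± 0.33 (adjusted p = 0.0435) became 0.62 ± 0.13 without array 2 (adjusted p = 0.00653). The 4 dimmer kept probe sets were higher as well, by 1.09 to 1.72 with array 2 included. Those at 1.72 and 1.58 also had their lowest value on array 2. On the wild-type LSK arrays they read 77.79, 7.26 and 96.73, and 16.85, 1.32 and 14.79. The call was lost in 11 of 22 alternatives, among them leaving out any 1 of arrays 4 to 12 (adjusted p = 0.0609 to 0.126). In the deficient cells Itgb1 read 196, 167.5 and 170.1 for LSK and 177, 169.9 and 161 for myeloid progenitors, which overlap (-0.07 ± 0.33, adjusted p = 0.915).

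Itgb3, the platelet and vitronectin receptor chain, read 132, 48.2 and 175 on wild-type LSK arrays and 120, 106 and 91.3 on wild-type myeloid progenitor arrays. Array 2 was the low one again. The log2 difference was 0.02 ± 0.39 with it and -0.53 ± 0.17 without it (adjusted p = 0.977 and 0.0388). In the deficient cells Itgb3 read 167, 175 and 159.8 for LSK and 110, 133 and 110 for myeloid progenitors, without overlap. That difference, -0.51 ± 0.39, was not called over all arrays (adjusted p = 0.418) and was called without array 2 (adjusted p = 0.0262), where the spread of the fit was smaller. Itgb2, the beta chain of the leukocyte integrins, had group means of 29.0 to 37.4, Itgb7, a mucosal homing chain, of 19.3 to 23.9, and Itgb5, another vitronectin receptor chain, of 9.94 to 25.8.

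Selp encodes P-selectin, stored in platelets, megakaryocytes and endothelium. It read 230, 392 and 189 on wild-type LSK arrays, with the high value on array 2, and 56.9, 77.3 and 64.6 on wild-type myeloid progenitor arrays. FoxO-deficient arrays read 189, 163.5 and 172.5 for LSK and 60.2, 32.1 and 41.8 for myeloid progenitors. All 6 myeloid progenitor arrays lay below all 6 LSK arrays, at -1.97 ± 0.30 in wild type (adjusted p = 0.00148) and -2.01 ± 0.30 in the deficient cells (adjusted p = 0.0013). Both dimmer probe sets were lower in each genotype. A megakaryocyte and platelet marker list, of which 8 of 10 genes were measured, summed to 221 to 351 in wild-type LSK cells, 389 to 417 in deficient LSK cells, 396 to 475 in wild-type myeloid progenitors and 301 to 358 in deficient ones. Its sum was thus higher in wild-type myeloid progenitors than in wild-type LSK cells, with 4 genes up and 4 down (Pf4 called higher, Gp9 called lower), and lower in deficient myeloid progenitors than in deficient LSK cells. Its part in the level of Selp was not tested.

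Selplg, the P-selectin ligand, read 47.4, 244 and 77.1 on wild-type LSK arrays, and its other 9 arrays lay between 42.7 and 74.0. The high value was that of array 2, and no comparison of Selplg was called. Cd44, the hyaluronan receptor, read 1635, 575 and 1491 on wild-type LSK arrays, 1646, 1569 and 1769 on deficient LSK arrays, 1346, 1481 and 1559 on wild-type and 1358, 1278 and 1320 on deficient myeloid progenitor arrays. Array 2 was again far below its group. Between the deficient cell types there was no overlap; the difference was -0.33 ± 0.33 (adjusted p = 0.549), or -0.32 ± 0.09 without array 2 (adjusted p = 0.0233).

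The immunoglobulin family and junction molecules held the largest cell type differences. Of these 10 members, 1 was higher and 4 were lower in wild-type myeloid progenitors, and 2 were higher and 4 lower in deficient ones. Over all genes, 21.4% and 19.6% were called. Icam1, the ligand of LFA-1, read 382, 740.1 and 387 on wild-type LSK arrays and 113, 129 and 99.2 on wild-type myeloid progenitor arrays. In FoxO-deficient cells it read 513, 467 and 441.5 for LSK and 58.1, 68.6 and 59.9 for myeloid progenitors. The cell types lay apart in both genotypes, at -2.08 ± 0.25 (adjusted p = 0.00038; -1.76 without array 2) and -2.93 ± 0.25 (adjusted p = 4.29e-05).

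Alcam, a receptor that binds itself and Cd6, read 2491, 2543 and 2712 on wild-type LSK arrays and 944, 874.5 and 792 on wild-type myeloid progenitor arrays. The deficient LSK arrays read 2391, 2590 and 2363 against 1112, 1096 and 1247. No array of one cell type came near the other. The log2 difference was -1.57 ± 0.14 (adjusted p = 6.16e-05) in wild type and -1.09 ± 0.14 (adjusted p = 0.000462) in the deficient cells, and the 3 dimmer kept probe sets were lower in each. Both calls held in all 22 alternatives.

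Vcam1, the ligand of the integrin made of Itga4 and Itgb1, was the member with the greatest difference in the other direction. It read 9.90, 16.6 and 5.04 on wild-type LSK arrays, where 2 of 3 lay above the limit, and 105, 81.1 and 77.3 on wild-type myeloid progenitor arrays. In the deficient cells it read 44.7, 28.9 and 37.2 for LSK and 95.1, 101 and 95.8 for myeloid progenitors. In each genotype every myeloid progenitor array lay above every LSK array. The log2 difference was 3.21 ± 0.37 (adjusted p = 0.000276) in wild type and 1.42 ± 0.37 (adjusted p = 0.0233) in the deficient cells. The latter call was lost without array 5, 6, 10, 11 or 12 (adjusted p = 0.0599 to 0.0827) and with the mean of all 3 probe sets (adjusted p = 0.0556). In such bulk samples, fewer cells that make a transcript and less RNA in each cell cannot be told apart.

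Macrophages, stroma and endothelium also make Vcam1. The monocyte and macrophage list, 7 of 10 genes measured, summed to 183 to 370 in wild-type LSK cells, 219 to 245 in deficient LSK cells, 1387 to 1593 in wild-type myeloid progenitors and 1663 to 1871 in deficient ones. Of its 7 genes, Cd163, F13a1 and Ccr2 were called higher in wild-type and F13a1 and Ccr2 in deficient myeloid progenitors, and 2 had negative differences in each genotype. Adgre1, the macrophage marker F4/80, was above the limit on no array of either wild-type group, but was above it on some array of each deficient group. The endothelial list, 6 of 8 genes measured, summed to 128 to 165, 129 to 181, 113 to 128 and 164 to 171 in the same order of groups, and Plvap was above the limit on no LSK array. The stromal list, 5 of 8 genes measured, summed to 80.3 to 209.6, 39.0 to 61.3, 32.9 to 38.9 and 35.3 to 38.5. Their part in the level of Vcam1 was not tested.

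The brightest probe sets of Jam2 and F11r, junction adhesion molecules, were above the limit on all LSK arrays and on no myeloid progenitor array, so bounds are given for them. Of their dimmer kept probe sets, both of Jam2 and that of F11r lay above it on 1 myeloid progenitor array each. Each bound sets the mean of the LSK group against the lowest level that could have been measured in myeloid progenitors. F11r read 20.6, 25.4 and 17.2 on wild-type and 20.4, 9.90 and 15.4 on deficient LSK arrays, against 3.18 to 9.03 on the 6 myeloid progenitor arrays. It was at least 2.07-fold higher in wild-type LSK cells (adjusted p = 0.00382) and at least 1.57-fold higher in deficient ones (adjusted p = 0.00301). A dimmer probe set of F11r ran the other way in the deficient cells, at 1.79 on the log2 scale, and with the mean of both probe sets the call was lost there (adjusted p = 0.907). Jam2 read 14.4, 29.5 and 19.5 on wild-type and 10.1, 12.6 and 13.4 on deficient LSK arrays, against 1.35 to 7.38 in myeloid progenitors. It was at least 2.02-fold higher in wild-type LSK cells (adjusted p = 0.0276) and at least 1.28-fold higher in deficient ones (adjusted p = 0.017). The call in wild type was lost without array 2, 3, 8 or 9 (adjusted p = 0.0556 to 0.0867), and that in the deficient cells without array 5 or 6 (adjusted p = 0.0531 and 0.0573) and with an offset of 32 in place of 0.6 (adjusted p = 0.0758).

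Icam2, another LFA-1 ligand, read 113, 133 and 129.8 on deficient LSK arrays and 205, 179.9 and 171 on deficient myeloid progenitor arrays, without overlap. Its difference of 0.56 ± 0.17 (adjusted p = 0.0483) was lost in 14 of 22 alternatives, with adjusted p-values up to 0.156. Among these were 10 of the 12 alternatives that leave out an array, the exceptions being arrays 2 and 3. In wild type it read 103.8, 85.9 and 123 against 147, 124 and 136 (0.39 ± 0.17, adjusted p = 0.147). Emb, an Ig family partner of the monocarboxylate transporters, had group means of 735, 697, 564 and 649 in wild-type LSK, deficient LSK, wild-type and deficient myeloid progenitor cells. It was not called over all arrays in wild type (-0.38 ± 0.13, adjusted p = 0.0634), and was called without array 2 (-0.42 ± 0.09, adjusted p = 0.00931). Pecam1, an endothelial and platelet receptor, had group means of 15.6 to 26.9 and was not called. Jam3 was above the limit on all 3 deficient LSK arrays, on 2 wild-type LSK arrays and on 1 myeloid progenitor array of 6. It was not called over all arrays (adjusted p = 0.177 in wild type and 0.127 in the deficient cells), and without array 2 both differences were called (adjusted p = 0.0123 and 0.0253).

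Podxl, a sialomucin of stem cells and podocytes, was lower in myeloid progenitors. It read 135, 98.9 and 153 against 73.3, 50.9 and 65.6 in wild type, and 108.5, 117 and 112 against 34.8, 44.0 and 35.6 in the deficient cells. Again no array overlapped. The log2 difference was -1.02 ± 0.21 (adjusted p = 0.00715) and -1.57 ± 0.21 (adjusted p = 0.00064). The call in wild type was lost where only those 6 arrays entered the fit (adjusted p = 0.0883).

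Cd47, the signal that keeps macrophages from engulfing a cell, read 2359, 818 and 2710 on wild-type LSK arrays and 2068 to 2669 on the other 9 arrays. Apart from array 2, the levels of this brightest probe set differed little. Its dimmer probe sets disagreed. On wild-type LSK arrays 1 and 3, 1 of them read 339.9 and 383.4, against 146.4 to 209 on wild-type myeloid progenitor arrays. Another read 1150 and 1168 against 1433 to 1511. Cd93, a C-type lectin receptor of early progenitors, had group means of 2035, 2070, 1761 and 1762 in the same order and was not called in either genotype.

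None of the 3 proteins that tie integrins to actin was called between cell types over all arrays. Vcl, vinculin, read 1182, 1103 and 1177 on wild-type LSK arrays, 1086, 1136 and 1101 on deficient LSK arrays, 1222, 1530 and 1388 on wild-type and 1172, 1232 and 1134 on deficient myeloid progenitor arrays. The wild-type groups did not overlap, at 0.25 ± 0.14 (adjusted p = 0.228), and with median scaling this difference was called. Fermt3, kindlin of blood cells, had group means of 1048, 1046, 1073 and 794 in wild-type LSK, deficient LSK, wild-type and deficient myeloid progenitor cells, and Tln1, talin, of 246, 163, 183 and 139. Between the deficient cell types Fermt3 differed by -0.40 ± 0.18 (adjusted p = 0.163), and by -0.39 without array 2, where it was called (adjusted p = 0.0446). Tln1 read 476 on array 2 against 120 to 241 on the other 11 arrays.

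**Figure D2:**
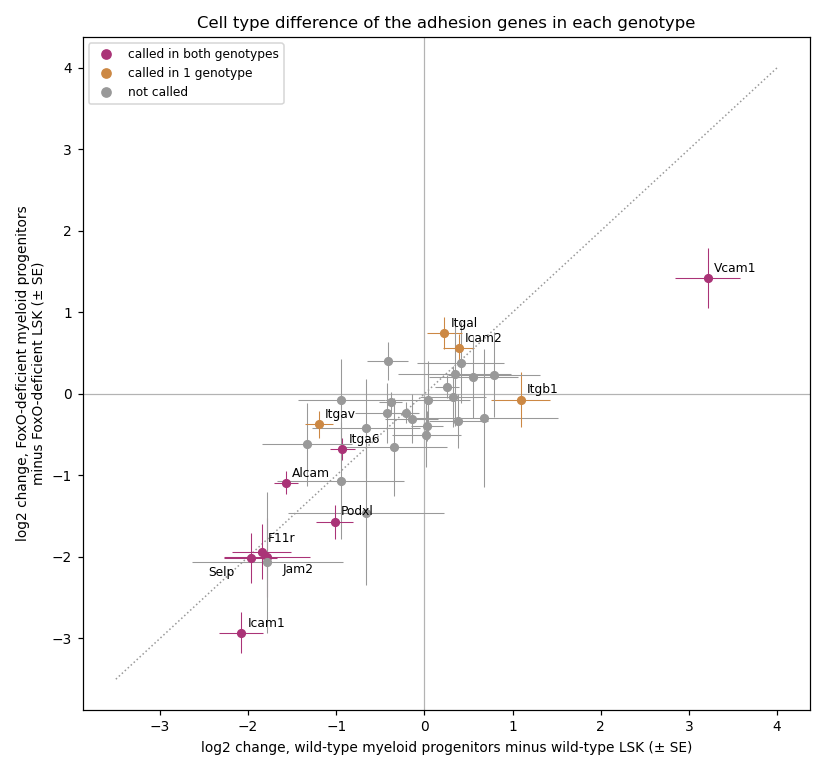
Log2 difference between myeloid progenitors and LSK cells in wild type (horizontal) and in FoxO-deficient cells (vertical) for the 35 adhesion genes, each with its standard error; the dotted line marks equal differences. Icam1 lies lowest in both genotypes, and Vcam1 lies at 3.21 in wild type and 1.42 in the deficient cells.

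The promoters of 4 members called between the wild-type cell types are shown to let their sequence be set beside these levels. Alcam, Icam1 and Itgav were lower in myeloid progenitors and Itgb1 was higher. Each window holds 250 bases before and 50 after an annotated RefSeq start on build GRCm38.p6, written 5′ to 3′ along the gene. The Itgav window lies inside the gene, whose RefSeq span begins at chr2:83722303. They lie at chr16:52453032-52453331 on the minus strand for Alcam, and on the plus strand at chr9:21015690-21015989 for Icam1, chr2:83724147-83724446 for Itgav and chr8:128685404-128685703 for Itgb1. Capitals mark the PU.1 motif GAGGAA or its reverse complement in Alcam, Itgav and Itgb1, and the TATA motif TATAAA in Icam1.
Alcam: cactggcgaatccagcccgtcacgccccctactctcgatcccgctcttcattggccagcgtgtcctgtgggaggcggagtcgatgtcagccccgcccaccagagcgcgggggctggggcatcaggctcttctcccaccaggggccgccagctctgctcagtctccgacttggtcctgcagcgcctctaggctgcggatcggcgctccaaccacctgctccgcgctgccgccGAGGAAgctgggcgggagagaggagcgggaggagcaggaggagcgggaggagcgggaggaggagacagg
Icam1: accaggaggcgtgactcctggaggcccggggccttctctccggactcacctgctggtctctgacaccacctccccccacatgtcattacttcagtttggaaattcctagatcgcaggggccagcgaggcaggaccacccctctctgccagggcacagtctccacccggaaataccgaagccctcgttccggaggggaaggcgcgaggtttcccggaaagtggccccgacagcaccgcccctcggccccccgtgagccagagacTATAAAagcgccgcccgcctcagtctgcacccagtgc
Itgav: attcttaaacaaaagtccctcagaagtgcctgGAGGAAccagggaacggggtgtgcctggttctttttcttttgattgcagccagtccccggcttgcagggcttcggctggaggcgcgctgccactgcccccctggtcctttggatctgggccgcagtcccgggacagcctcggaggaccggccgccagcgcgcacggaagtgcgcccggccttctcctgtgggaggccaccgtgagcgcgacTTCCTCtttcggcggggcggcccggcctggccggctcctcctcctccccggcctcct
Itgb1: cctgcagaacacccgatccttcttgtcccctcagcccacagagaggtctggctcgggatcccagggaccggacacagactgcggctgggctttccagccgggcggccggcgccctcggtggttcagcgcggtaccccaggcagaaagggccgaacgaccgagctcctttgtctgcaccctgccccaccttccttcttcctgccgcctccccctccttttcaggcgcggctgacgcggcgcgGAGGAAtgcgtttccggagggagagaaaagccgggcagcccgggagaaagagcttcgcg
For 21 of the 35 members RefSeq windows were at hand, 22 in all, out of 32851 windows of the same length. On either strand, the FoxO motif GTAAACA was in 0 of the 22, against 3.65% of all windows. The PU.1 motif GAGGAA was in 10 (45.5%, against 28.3% of all windows), the GATA motif AGATAA in 2 (9.09%, against 11.2%), the Runx motif TGTGGTT in 0 (against 5.27%), the ETS motif CCGGAAG in 2 (both of Cd47; 9.09%, against 8.86%) and TATAAA in 1, Icam1 (4.55%, against 13.6%). In Icam1 the TATA motif begins 14 bases after the annotated start. The PU.1 and ETS letters overlap in part of their core, and a match describes letters only. Itgb1, higher in wild-type myeloid progenitors, and Alcam and Itgav, lower there, each held the PU.1 letters.

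In LSK cells, no member was called between FoxO-deficient and wild-type arrays (0 of 35), where 0.269% of all genes were called (0.124% higher and 0.146% lower). At an unadjusted p under 0.05 limma gave 2 members, Vcam1 and Itgb1. The groups did not overlap for 3 members higher and 2 lower in the deficient cells (14.3%; 16.8% of all genes, 7.77% higher and 9.06% lower). The members' median log2 change was -0.07, against -0.04 over all genes.

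Vcam1 had the greatest change among them. It read 9.90, 16.6 and 5.04 in wild-type and 44.7, 28.9 and 37.2 in FoxO-deficient LSK cells, as given above, so every deficient array lay above every wild-type array. The change was 1.95 ± 0.37 on the log2 scale (95% interval 1.13 to 2.78), with 1 wild-type array under its limit, and it did not pass over all arrays (adjusted p = 0.0913). Without array 2, the highest of the wild-type arrays, it was 2.38 ± 0.29 and passed (adjusted p = 0.0116), and then 1 of 34 members was called (2.94%; 0.989% of all genes). It also passed with an offset of 16 or 32 in place of 0.6, with a stricter filter on low values, and with array weights. The 2 dimmer probe sets of Vcam1 gave 2.01 and 1.85, but neither lay above the limit on any wild-type LSK array. The dimmest lay above it on 2 of 3 deficient LSK arrays. The macrophage marker list summed to 183 to 370 in wild-type and 219 to 245 in deficient LSK cells, ranges that overlap. Its genes did not move alike. Of the 7 measured, 6 had positive changes, none of them called, while Ccr2 was called lower in the deficient cells. Some other marker lists summed higher on every deficient LSK array, and the stromal list summed lower (80.3 to 209.6 in wild-type and 39.0 to 61.3 in deficient cells). The late neutrophil list summed to 5813 to 7848 and 8239 to 8521, with 5 genes up, 3 down and Camp called higher. The megakaryocyte and platelet list summed to 221 to 351 and 389 to 417, with 4 genes up and 4 down. The mast cell, basophil and eosinophil list, 9 of 10 genes measured, summed to 97.6 to 210.6 in wild-type and 317 to 382 in deficient LSK cells, with Mcpt8 called. The T and NK cell list, 4 of 8 genes measured, summed to 261 to 708 and 854.5 to 1102. Only 1 of its 4 genes lay above the limit on all 3 arrays in either LSK group, and none was called between them. The part of these lists in the level of Vcam1 was not tested.

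**Figure D3:**
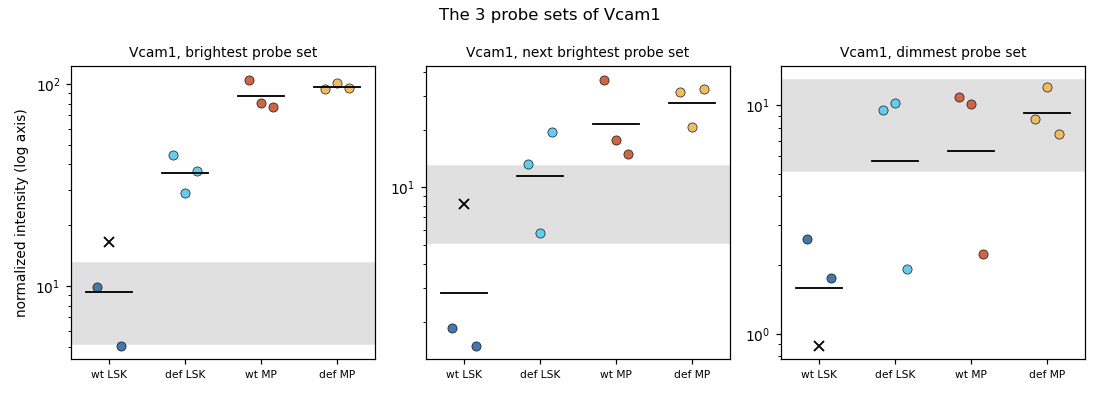
Normalized intensity (log axis) of the 3 probe sets of Vcam1 on every array, with the group means as lines, array 2 as a cross and the background limits of 5.143 to 12.96 in grey. In FoxO-deficient LSK cells the brightest probe set reads 28.9 to 44.7, between the wild-type LSK arrays and the myeloid progenitor arrays, while the dimmest stays near background.

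Itgb1 had a mean of 100 in wild-type and 177.5 in deficient LSK cells, without overlap, at 0.83 ± 0.33 (adjusted p = 0.404). Without array 2 this was 0.36 ± 0.13 (adjusted p = 0.227). Other uncalled differences also moved when array 2 was left out, and 12 of 34 members changed sign. Itgb3 went from 0.69 to 0.14, Cd44 from 0.57 to 0.09, Cd47 from 0.56 to 0.02, Tln1 from -0.59 to -0.11 and Selplg from -0.59 to 0.08. Itgae went from -0.65 to 0.28, Pecam1 from 0.58 to -0.14 and Jam3 from 0.44 to -0.58, while Itgb5 went from 0.71 to 1.45. These values are those of the brightest probe sets. For Cd44, 2 dimmer probe sets were higher in deficient LSK cells without overlap, at 0.62 and 0.67 over all arrays, and neither was called. The first read 478, 467 and 498 against 709, 692 and 825, with array 2 close to its group. The dimmest probe set of Cd44 gave -0.45. Icam1 (-0.02 ± 0.25), Alcam (-0.08 ± 0.14), Itga6 (0.02 ± 0.14) and Podxl (-0.17 ± 0.21), all of them lower in myeloid progenitors, had small changes in LSK cells, with 95% intervals of -0.58 to 0.55, -0.38 to 0.23, -0.29 to 0.33 and -0.64 to 0.29.

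In myeloid progenitors again no member was called between genotypes over all arrays (0 of 35), where 1.84% of all genes were called (0.757% higher and 1.09% lower). At an unadjusted p under 0.05 limma gave 7 members, namely Itgal, Itgav, Icam1, Icam2, Fermt3, Podxl and Alcam. The groups did not overlap for 8 members higher and 7 lower in the deficient cells (42.9%; 30.8% of all genes, 18.2% higher and 12.6% lower). Leaving out array 2, a wild-type LSK array that belongs to neither of these groups but shares the normalization, the filter and the estimate of spread, gave 4 called members of 34 (11.8%; 8.88% of all genes). Of these, Icam1 and Podxl fell and Itgav and Alcam rose in the deficient cells.

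Icam1, as given above, read 113, 129 and 99.2 in wild-type and 58.1, 68.6 and 59.9 in FoxO-deficient myeloid progenitors. Each deficient array lay below each wild-type array, at -0.87 ± 0.25 (adjusted p = 0.147; 0.0043 without array 2). It was also called with array weights and where only these 6 arrays were fitted (adjusted p = 0.0036 and 0.0401). Podxl read 73.3, 50.9 and 65.6 against 34.8, 44.0 and 35.6, again without overlap. Its change was -0.72 ± 0.21 (adjusted p = 0.144; 0.0245 without array 2).

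Itgav read 428, 528 and 478 in wild-type and 766.5, 689.8 and 636 in deficient myeloid progenitors, so the deficient arrays were all higher. The change was 0.55 ± 0.16 (adjusted p = 0.153; 0.0435 without array 2). Of its 4 dimmer probe sets, 3 ran the other way, and the mean of all 5 gave -0.23 (adjusted p = 0.86). Alcam read 944, 874.5 and 792 against 1112, 1096 and 1247, also without overlap, at 0.41 ± 0.14 (adjusted p = 0.23; 0.0439 without array 2). All 3 dimmer kept probe sets of Alcam had the same sign, from 0.04 to 0.65. The change of these 4 genes was not larger without array 2; their standard errors were smaller.

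Icam2 read 147, 124 and 136 in wild-type and 205, 179.9 and 171 in deficient myeloid progenitors, without overlap (0.45 ± 0.17, adjusted p = 0.299; 0.0593 without array 2). Itgal, whose means were 64.5 and 88.5, differed by 0.46 ± 0.20 (adjusted p = 0.369), and Fermt3, whose means were 1073 and 794, by -0.43 ± 0.18 (adjusted p = 0.346). Neither group overlapped, and neither gene passed. Vcam1, with means of 87.0 and 97.3, differed by 0.16 ± 0.37, with a 95% interval of -0.67 to 0.99. The sorted progenitors also differed in other markers. A granulocyte-monocyte progenitor list, 9 of 10 genes measured, summed to 15800 to 16340 in wild-type and 19680 to 20340 in deficient myeloid progenitors. An erythroid list, 7 of 10 genes measured, summed to 9447 to 9945 and 7638 to 8011. A mast cell, basophil and eosinophil list, 9 of 10 genes measured, summed to 639 to 754 and 1061 to 1078. The part of such shifts in the changes of Icam1, Podxl, Itgav and Alcam was not tested.

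**Figure D4:**
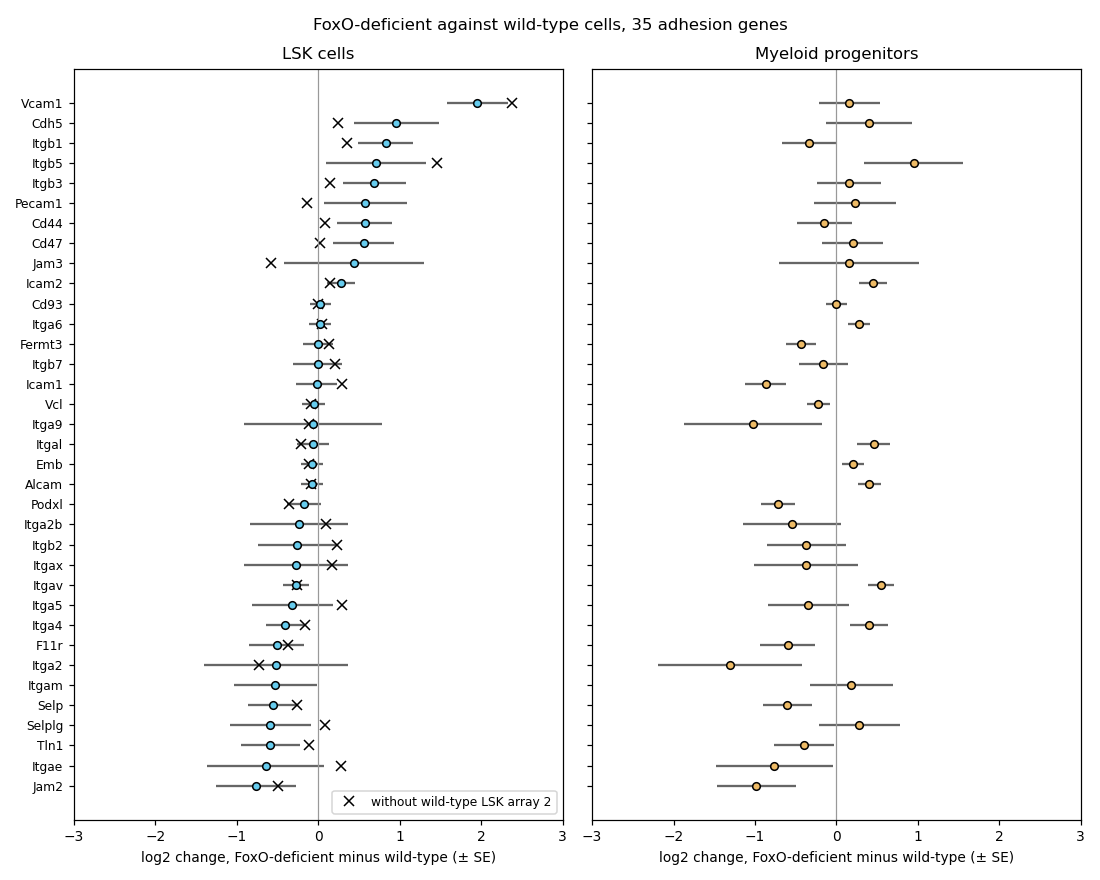
Log2 change of the 35 adhesion genes between FoxO-deficient and wild-type LSK cells (left) and myeloid progenitors (right), with standard errors; crosses in the left panel leave out array 2. Vcam1 lies highest in LSK cells, at 1.95 with and 2.38 without array 2, and Podxl (-0.72) and Icam1 (-0.87) lie low in myeloid progenitors.

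No member was called for a difference of the FoxO effect between the cell types over all arrays, where 0.859% of all genes were called. At an unadjusted p under 0.05 limma gave 6 members. These were Itgav (0.82 ± 0.23, adjusted p = 0.184), Vcam1 (-1.79 ± 0.52, adjusted p = 0.211), Itgb1 (-1.16 ± 0.47), Itga4 (0.81 ± 0.33), Alcam (0.48 ± 0.19) and Icam1 (-0.85 ± 0.36), the last 4 at adjusted p of 0.402 to 0.427. For Itgav and for Itga4, 3 of the 4 dimmer kept probe sets ran the other way. A negative value means that the log2 change with FoxO deficiency was less positive or more negative in myeloid progenitors than in LSK cells. Without array 2, Vcam1 (-2.22 ± 0.39, adjusted p = 0.0228) and Icam1 (-1.16 ± 0.18, adjusted p = 0.0142) were called, 5.88% of 34 members where 3.51% of all genes were called. By the same test, the smaller cell type difference of Vcam1 and Itgav in the deficient cells was not shown over all arrays to differ from that in wild type.

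Other adhesion genes, in lists assembled beside the 35, were compared in the same fit. Of 44 measured genes of integrin activation and focal adhesion, 3 were higher and 11 lower in wild-type myeloid progenitors, and 0 and 6 in deficient ones. That is 31.8% and 13.6% of the list, where 21.4% and 19.6% of all genes were called. Fyn, a Src family kinase, was lower in both, with means of 235 against 650.1 and 231 against 751 (adjusted p = 0.0012 and 0.000474). Of 26 junction, cadherin and immunoglobulin family molecules, 3 were higher and 7 lower in wild type (38.5%), and 3 and 9 in the deficient cells (46.2%). Ncam1 was higher in myeloid progenitors (904 against 279 and 1380 against 440, adjusted p = 8.85e-05 and 8.35e-05), while Esam, an endothelial and stem cell molecule, had means of 124 and 43.2 in LSK cells against 8.26 and 2.86 in myeloid progenitors.

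Of 13 matrix and soluble ligands, 4 were lower in myeloid progenitors of each genotype (30.8%) and none higher. Among them was Mmrn1, a platelet and endothelial protein (22.1 against 377 and 17.8 against 196, adjusted p = 3.23e-06 and 4.27e-06). The shares called over all genes were 21.4% in wild type and 19.6% in the deficient cells, as above. Of 15 genes of selectin ligands and glycan synthesis, 2 were higher and 2 lower in wild type (26.7%), and 3 and 2 in the deficient cells (33.3%). Fut4, a fucosyltransferase of selectin ligands, was higher in myeloid progenitors (68.2 against 33.9 and 150.1 against 29.8, adjusted p = 0.022 and 0.000231). Of 11 tetraspanins, 2 were higher and 1 lower in wild type (27.3%), and 1 and 0 in the deficient cells (9.09%). Of the 2 measured alpha chains outside the 35, Itga1, a collagen receptor chain, was higher in myeloid progenitors of both genotypes (101 against 7.22 and 42.7 against 6.89, adjusted p = 0.00019 and 0.00159), with 1 LSK array of 3 above the limit in each. Of 5 measured genes listed with the other beta chains, only Itgb1bp1, which encodes a protein that binds the tail of Itgb1 and not a subunit, was called, and it was higher in wild-type myeloid progenitors (adjusted p = 0.0221).

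Between genotypes, none of these lists held a called gene in LSK cells, and 3 genes were called in myeloid progenitors. Over all genes, 0.269% and 1.84% were called. Gcnt1, which builds the branched sugars that selectins bind, rose from 125 to 348 (1.48 ± 0.24, adjusted p = 0.0125). Its arrays read 106.5, 133 and 137 in wild-type and 338, 380.2 and 329 in deficient cells, without overlap. Tspan33, a tetraspanin of erythroid progenitors, fell from 745.5 to 297 (-1.33 ± 0.22, adjusted p = 0.0158), and Thbs1, the matrix protein thrombospondin-1 that binds Cd47, fell from 162 to 14.3 (-3.501 ± 0.62, adjusted p = 0.0216). The call of Gcnt1 was lost with the mean of its probe sets, the dimmer of which ran the other way (adjusted p = 0.129), and without array 7 or 11 (adjusted p = 0.0592 and 0.0578), that of Tspan33 without array 7, 9, 10 or 12 (adjusted p = 0.0544 to 0.073), and that of Thbs1 without any 1 of arrays 7 to 12 (adjusted p = 0.0531 to 0.0903). With the mean of their probe sets the calls of Tspan33 and Thbs1 were lost too (adjusted p = 0.0868 and 0.0561).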

How the data were processed

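RNA from sorted LSK cells and myeloid progenitors was amplified with the NuGEN Ovation system and hybridised to Affymetrix arrays, per the labels' protocols. The deposited file holds linear intensities, 1 for each of 45101 probe sets per array. How the authors summarised probes is not stated in the sources used here. Array medians ran from 8 to 13.5 and array means from 119 to 190.2, and no pair of arrays shared more than 1.55% of its values.

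An offset of 0.6, the 10th percentile of the values, was added before log2 values were taken and quantile normalized. Fold changes are on that scale, and normalized intensities include the offset. For dim genes the offset shrinks a change, and noise near background can inflate it. Apart from 64 controls, 34945 probe sets carried 1 gene symbol and 932 several; only the former named genes, with 34754 symbols brought up to date by gene identifier in a RefSeq table of GRCm38.p6. Probe sets had to exceed the 40th percentile of their array on at least 3 arrays, as 85 of the 95 member probe sets did, and each gene was read from its kept probe set of highest mean. The 4 groups were fitted together by limma 3.58.1 under R 4.3.3 (lmFit, then eBayes; 8 residual degrees of freedom), with Benjamini-Hochberg adjustment over 13732 genes. The 5 contrasts were the FoxO effect in each cell type, their difference, and the cell type difference in each genotype. The fit was also run on simulated data, independent normal values with the mean and spread of each gene. Those data held no degraded array and no arrays from a shared pool, so that run does not bear on these limits. The background limit is the highest of 27 low bacterial control probe sets on an array. The number of arrays limits the precision.

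The members and gene lists were chosen with earlier results of these data known. Genes given on every array are those called in any contrast and the brightest of each role; from each other list, up to 4 called genes per contrast were eligible by smallest adjusted p. The alternatives were other offsets, median scaling, other filters, other uses of probe sets, array weights, an intensity trend, fits of the compared groups alone and each array left out. The TATA motif was added after the promoter sequences were seen.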

Additional observations from a re-analysis of the deposited data

Results flagged for a closer look

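Thbs1, the matrix protein thrombospondin-1 and a ligand of Cd47, differed between the cell types in its FoxO effect, by -4.93 ± 0.88 on the log2 scale (limma adjusted p = 0.0346). It read 444, 91.9 and 613 in wild-type and 795, 692 and 896 in FoxO-deficient LSK cells, a change of 1.43 ± 0.62 that was not called (adjusted p = 0.428). In myeloid progenitors it read 114, 228 and 162 in wild-type and 17.5, 9.04 and 18.4 in deficient cells, of which 2 of 3 lay above the background limit. The low wild-type LSK value is that of array 2, and without that array the difference was -4.10 ± 0.50 (adjusted p = 0.00449). The call was lost in 11 of 21 alternatives, among them leaving out any array other than arrays 2 and 3 (adjusted p = 0.0544 to 0.104). The dimmer probe set of Thbs1 gave -3.26.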

How the results depend on the processing

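The counts here cover the 43 differences of single members that were called under at least 1 setting. Of their 937 values under the alternatives, 830 kept their direction and side of the threshold, 48 lost a call, 49 gained one and 10 changed sign. Among all members, called or not, 12 of 34 changed sign without array 2 in the FoxO comparison of LSK cells and 7 of 34 between the wild-type cell types. The number of members called between FoxO-deficient and wild-type LSK cells went from 0 to 1 (Vcam1) with an offset of 16 or 32, the 60th percentile filter or array weights, and from 0 to 1 over the fits that leave out an array. In myeloid progenitors it went from 0 to 1 with an offset of 32 (Itgav), to 1 with only the groups compared (Icam1) and to 5 with array weights, and ranged from 0 to 4 over the left-out arrays. For the difference of the FoxO effects it went from 0 to 2 with array weights and ranged from 0 to 2. Between cell types it ranged from 8 to 12 in wild type and from 6 to 14 in the deficient cells over the left-out arrays, and it went from 10 to 17 with array weights in the deficient cells. Array weights gave array 2 a weight of 0.06, against 0.80 to 1.57 for the others. Among the fits that leave out an array, the most calls in each comparison came without array 2, and the low of 6 came without array 6.

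Among the 43, the sign changed for Itgav between genotypes in myeloid progenitors with the mean of all probe sets (-0.23), and for Cd93 between the deficient cell types with median scaling (0.0354) and with the mean of all probe sets (0.0551). For Itgb3 between wild-type cell types it changed with an offset of 16 (-0.0066) or 32 (-0.0225) and with array weights (-0.55). Over the fits that leave out an array, Itgb3 ranged from -0.53 (without array 2) to 0.40, being below 0 also without array 7, Itga5 between wild-type cell types from -0.11 (without array 3) to 1.02, and Jam3 between deficient cell types from -2.18 to 0.36 (without array 10). The members' median moved to -0.08 in the deficient cells with median scaling, and to 0.08 between genotypes in myeloid progenitors with the 60th percentile filter. No paired analysis was possible because the arrays are numbered 1 to 12 and no number is shared between groups. Signals near background limit Jam2, Jam3, F11r, Vcam1 in wild-type LSK cells, and the 5 dimmest members. The causes of these shifts were not tested.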
